A study of Mus musculus with 2 samples.

Results

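Cytochrome P450 enzymes of families 1 to 4 were examined in intestinal epithelial preparations of Lrrc19 KO and WT mice, as a group of genes with a probe set on the array. The members were all probe sets whose gene symbol in the platform annotation was Cyp1, Cyp2, Cyp3 or Cyp4 followed by a letter. This rule took 73 of 45101 probe sets, of which 69 carried the symbol of 1 gene and stood for 56 of the 18193 genes that had an unshared probe set. The other 4 probe sets carried the symbols of several genes and are described apart. The rule used names alone and no measured value.

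Each genotype was represented by 1 Affymetrix mouse array, and the RNA on it came in equal parts from 5 mice. Both pools held, by the labels, 2 males and 3 females aged 6 weeks. The background was C57BL/6. The KO mice carried a disrupted Lrrc19 gene, made earlier by the same group, and the WT mice, by the paper, were cohoused with them. All mice were kept free of specific pathogens, and neither pool received a treatment. Epithelium was released from intestine with EDTA, and T cells, B cells, DCs and macrophages were then removed with magnetic beads. The sources used here give neither the region of intestine nor the deleted exons of Lrrc19. With 1 pool per genotype, variation among mice could not be estimated, and no test or p-value is given. In such bulk RNA, fewer cells of a type and less RNA per cell cannot be told apart.

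P450 enzymes are haem proteins of the endoplasmic reticulum that insert oxygen into fat-soluble molecules, with electrons passed on by a reductase or by cytochrome b5. Families 1 to 3 are best known for the oxidation of drugs, plant compounds, and pollutants. Family 4 and parts of family 2 oxidize fatty acids such as arachidonic acid and its eicosanoid products. In the gut, these enzymes meet food and microbial products first, and many are switched on through the ligand-activated factors AHR, PXR, CAR, and PPARA.

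Intensities are in arbitrary units on a linear scale. They depend on the probes of each probe set as well as on the transcript, so each gene was compared between the pools. An order of intensities among genes is not an order of transcript amounts, and a sum over genes is weighted by the brightest probe sets. The floor, the median over both arrays with control probe sets left out, was an intensity of 127. A gene was counted as measured when it reached the floor in at least 1 pool, and as higher or lower when its log2 difference, Lrrc19 KO minus WT, was at least 1 in size, that is 2-fold. Lrrc19 was at 212 in the KO pool and 905 in the WT pool (4.26-fold lower in KO). All 14 enterocyte markers and all 10 smooth muscle markers were measured, and the summed intensity of the smooth muscle markers was 79103 in KO and 60199.6 in WT (all 10 between 0.26 and 0.65 in log2 difference), so transcripts of a cell type outside the label were present in both pools. Markers of cells that the beads were to remove were measured too. Of 12 macrophage markers, 10 were measured, 8 with a log2 difference below 0 and 2 above it (median -0.23). Of 10 T cell markers on the array, 8 were measured, 5 below 0 and 3 above it (median -0.17). Gzma (587 in KO and 1278 in WT) and Gzmb (184 in KO and 420 in WT) were at least 2-fold lower. Over all 12518 measured genes the median log2 difference was 0.01 and the robust SD 0.27.

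Of the 56 P450 genes, 28 were measured and 28 stayed under the floor in both pools. All 3 genes of family 1 were under it. In family 2, 19 of 35 genes were measured, in family 3, 2 of 5, and in family 4, 7 of 13. Among the 28 measured genes, 23 reached the floor in both pools and 5 in only 1 of them (Cyp2b13, Cyp2c23, Cyp2c39, Cyp2e1, and Cyp4f18), and for these 5 the low pool gives only a bound.

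At least 2-fold higher in the Lrrc19 KO pool were 2 of the 28 measured P450 genes, Cyp2d9 and Cyp2d10, where 0.559% of all measured genes were. At least 2-fold lower was 1, Cyp2e1, where 0.407% of all measured genes were. The other 25 differed by less. Over the 28 genes the log2 difference ranged from -1.66 to 1.24 around a median of 0.12. The median was 0.10 in family 2, 0.00099 in family 3, and 0.17 in family 4, beside 0.01 over all measured genes. The P450 counts depend on the processing. With spike-ins centred, 0 were higher and 2 lower (Cyp2e1 and Cyp2j6), without probe sets that can match several transcripts 1 was higher (Cyp2d10), and 0 were lower once the floor was moved to the 75th percentile. Both background shares depend on the scaling, since 70 genes were higher and 51 lower in the values as deposited, 53 and 76 with both arrays set to the same median, 95 and 34 with control genes centred, and 22 and 677 with spike-ins centred.

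**Figure D1:**
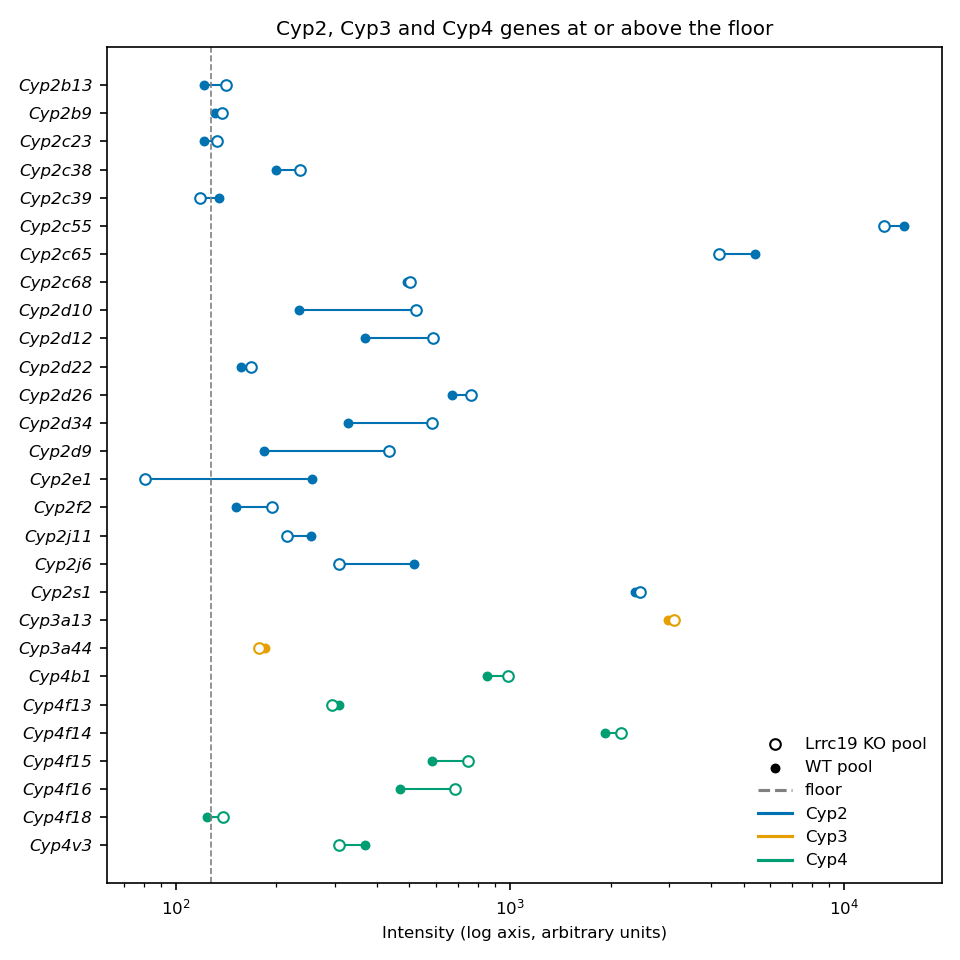
Intensity (log axis, arbitrary units) of the 28 measured P450 genes in the Lrrc19 KO pool (open) and the WT pool (filled), from 1 array each, so that no error bar can be drawn. A dashed line marks the floor of 127. Cyp2d9, Cyp2d10, Cyp2d12, and Cyp2d34 lie well to the right in KO, Cyp2e1 and Cyp2j6 to the left, and the other genes, such as Cyp2c55 (13203 in KO and 15109 in WT), have close pairs of points.

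The largest median difference of a subfamily with several measured genes was that of Cyp2d, whose genes lie in a row on chromosome 15 and oxidize many drugs and steroids. Upstream sequences of these genes are shown because neighbours in this row differed together. The RefSeq promoter table (GRCm38.p6) held 43 of the 56 array genes, among them Cyp2d9, Cyp2d10, Cyp2d26, and Cyp2d40, and it held no entry for Cyp2d12, Cyp2d13, Cyp2d22, and Cyp2d34. The 120 bases before the annotated start of Cyp2d9 and Cyp2d10, which were higher in the Lrrc19 KO pool, and of Cyp2d40, which stayed under the floor, are printed 5′ to 3′ with the stretches CAAAGGGCA and TATAA in capitals. They lie at chr15:82452257-82452376 on the plus strand for Cyp2d9, at chr15:82407195-82407314 on the minus strand for Cyp2d10, and at chr15:82764123-82764242 on the minus strand for Cyp2d40.
Cyp2d9: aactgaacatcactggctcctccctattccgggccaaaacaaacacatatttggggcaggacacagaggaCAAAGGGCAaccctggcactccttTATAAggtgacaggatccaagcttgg
Cyp2d10: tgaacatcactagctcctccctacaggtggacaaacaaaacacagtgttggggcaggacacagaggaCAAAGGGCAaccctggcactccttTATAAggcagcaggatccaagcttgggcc
Cyp2d40: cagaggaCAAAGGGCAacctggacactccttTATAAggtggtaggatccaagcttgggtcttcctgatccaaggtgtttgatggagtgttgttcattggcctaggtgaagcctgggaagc

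Over the 250 bases before the start, Cyp2d9 and Cyp2d10 were 85.0% identical at 246 aligned bases, and Cyp2d9 and Cyp2d40 80.2% at 187. Cyp2d26 was the most distant, 64.8% identical to Cyp2d9 at 219 aligned bases. The stretch CAAAGGGCA, searched on both strands and chosen after the sequences and values had been seen, was present in Cyp2d9, Cyp2d10, Cyp2d11, and Cyp2d40. It was found in 0.399% of the 32851 promoter windows searched, which did not cover every chromosome. It began 50 bases before the start in Cyp2d9, 53 in Cyp2d10, and 113 in Cyp2d40. A gene that was higher in KO and one that was under the floor in both pools thus shared these letters, and nothing is drawn from them about a factor. TATAA, which does not overlap that stretch, was found on either strand in 22.8% of the searched windows and in 23 of the 49 windows of array P450 genes.

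All 6 measured Cyp2d genes had a log2 difference above 0, with a median of 0.76 (range 0.10 to 1.24), although Cyp2d22 and Cyp2d26 turned below 0 with spike-ins centred, where the median was 0.18. With the floor at the 25th percentile, Cyp2d13 and Cyp2d40 also counted as measured, Cyp2d40 below 0, and the median was 0.44. The median over all measured genes was 0.01. Cyp2d9, a steroid hydroxylase known from the liver of male mice, was at 434 in the KO pool and 184 in the WT pool (2.36-fold higher), rank 38 from the top of the 12518 measured genes. Its neighbour Cyp2d10 was at 523 in KO and 233 in WT (2.24-fold higher), rank 43 from the top. These 2 genes lie next to each other in the row without another annotated Cyp2d gene between them.

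The next protein-coding genes in the row had smaller differences. Cyp2d12 had an intensity of 590.1 in the KO pool and 368 in the WT pool (1.60-fold). Cyp2d34 had one of 583 in KO and 328 in WT (1.78-fold). Neither passed 2-fold, and both were singled out after their values had been seen.

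Genes toward both ends of the row were close to equal in the pools. Cyp2d22, at one end of the measured genes, was at 168 in KO and 157 in WT (log2 difference 0.10). Its second probe set, under the floor, gave 109 in KO and 96.1 in WT. Cyp2d26, at the other end, was at 763 in the KO pool and 669 in the WT pool (0.19). Between them, the pseudogene Cyp2d13 (124 in KO and 114 in WT) and Cyp2d40 (82.2 in KO and 98.5 in WT) were under the floor in both pools. A second, dimmer probe set of Cyp2d13 gave 34.5 in KO and 15.5 in WT.

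**Figure D2:**
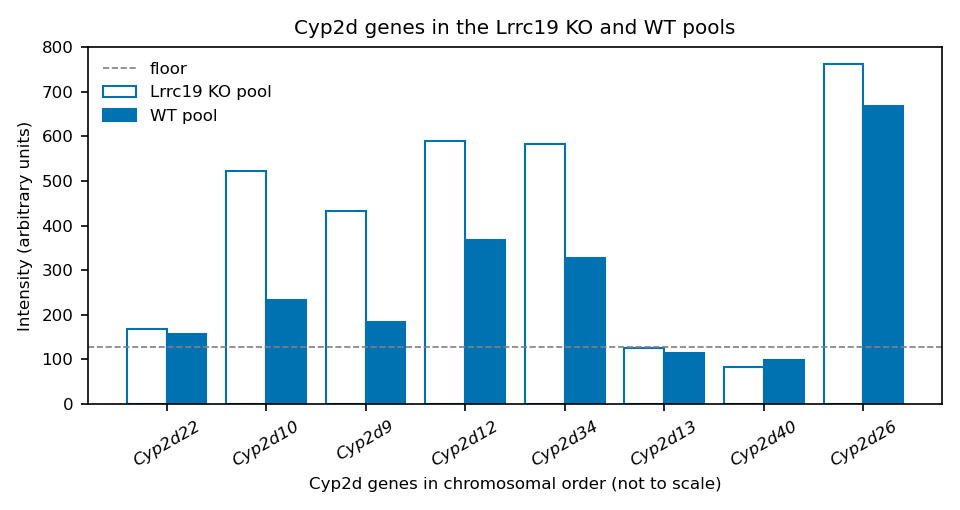
Intensity (linear axis, arbitrary units) of the 8 Cyp2d genes on the array in the Lrrc19 KO pool (open bars) and the WT pool (filled bars), in their order along chromosome 15 and not to scale, without error bars since each pool had 1 array, and with the floor of 127 dashed. Heights are to be compared within a gene. Cyp2d10, Cyp2d9, Cyp2d12, and Cyp2d34, which follow each other among the genes on the array, have the taller KO bars, and Cyp2d22, Cyp2d13, Cyp2d40, and Cyp2d26 differed little.

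How far such differences exceed the noise of the arrays could be judged only roughly. Where a gene had 2 probe sets at or above the floor that each match a single transcript (1986 genes), their log2 differences lay apart by a median of 0.19, and by less than 0.64 in 95% of the genes. The log2 differences of Cyp2d9 (1.24), Cyp2d10 (1.16), Cyp2d34 (0.83), and Cyp2d12 (0.68) were above that value as deposited, and those of Cyp2d22 and Cyp2d26 below it. Cyp2d12 was under it with both arrays set to the same median (0.60), and with spike-ins centred both Cyp2d12 (0.18) and Cyp2d34 (0.33) were. Cyp2d9 and Cyp2d10 stayed above it under every setting that measured them. This gap holds differences between probes and the noise of single probe sets, and not the spread between mice. Whatever moved both probe sets of a gene alike, such as the scaling, drops out of it. Each of the 4 genes had 1 probe set. The one of Cyp2d9 is of a kind that can match several transcripts, which the gap left out. These genes are close relatives, and how much signal they share was not tested.

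Other measured differences stood beside that of the Cyp2d genes. Of 20 colon markers on the array, 17 were measured, 11 with a log2 difference above 0 and 6 below it (median 0.71). At least 2-fold higher in KO were 6, and none was 2-fold lower. Among those below 0 were Car1 (18909 in KO and 22420 in WT) and Muc2 (18071 in KO and 20977 in WT). All 20 summed to an intensity of 94828 in KO and 79633 in WT. The largest difference was that of the proton pump subunit Atp12a (4760.2 in KO and 531 in WT). The homeobox genes Hoxb13 (738 in KO and 259 in WT) and Hoxd13 (255 in KO and 42.4 in WT) belonged to the 6 higher ones. So did Aqp8 (4873 in KO and 2019 in WT), Saa1 (11265 in KO and 5585 in WT), and Ggh (3247 in KO and 1454 in WT). The WT value of Hoxd13 was under the floor, so Hoxd13 counted as measured through the KO pool alone. Of the 9 measured ileum markers, 6 had a log2 difference below 0 and 3 above it (median -0.37). At least 2-fold lower was 1, the transcription factor Osr2 (215 in KO and 472 in WT). All 11 ileum markers on the array summed to more in KO (34159) than in WT (28300), among them Muc3 (14862 in KO and 10377 in WT). Of 16 hepatocyte markers, from a cell type rich in P450 enzymes, 9 were under the floor, among them Alb (60.2 in KO and 54.1 in WT), and none of the 7 measured passed 2-fold. All 16 summed to an intensity of 3301 in KO and 3595 in WT. The X-inactivation transcript Xist was at 5739.6 in KO and 3293 in WT (1.74-fold), although the labels give both pools the same number of males and females. The Y-linked genes Kdm5d, Uty, and Eif2s3y were under the floor in both pools, so these values did not show the males that the labels give. The part of these markers in the Cyp2d values was not tested.

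Cyp2e1, which oxidizes ethanol, acetone, and other small molecules and is expressed in hepatocytes and adipocytes, was the P450 gene with the largest difference as measured. It was at 80.9 in the Lrrc19 KO pool and 255 in the WT pool, rank 10 from the bottom of all measured genes. The KO value was under the floor, so Cyp2e1 was at least 2.00-fold lower, a bound that only just passes 2-fold. It was read from a single probe set, and it counted as measured through the WT pool alone.

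Adipocyte markers stood beside this value. Of 14 on the array, 11 were measured, 8 had a log2 difference below 0 and 3 above it, 3 were at least 2-fold lower in KO and none was higher, with a median log2 difference of -0.27. All 14 summed to an intensity of 4527 in KO and 8893 in WT, a sum in which Car3 had the largest part in WT. The hormone Adipoq was at 24.4 in KO, under the floor, and 313 in WT, so it counted as measured through the WT pool alone. The carbonic anhydrase Car3 was at 278 in KO and 2941 in WT, and the fatty acid carrier Fabp4 at 648 in KO and 1372 in WT. Other markers on the list gave other values, such as the lipid droplet proteins Cidec (304 in KO and 276 in WT) and Plin4 (372 in KO and 337 in WT), and Lep was under the floor in both pools. The part of fat cell transcripts in the Cyp2e1 value was not tested.

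The Cyp2j subfamily makes epoxides from arachidonic acid. Cyp2j6, a member known from the mouse intestine, had an intensity of 308 in the Lrrc19 KO pool and 514 in the WT pool (log2 difference -0.74). Its second probe set was at 181 in KO and 230.0 in WT (log2 difference -0.35), and both ran in the same direction by different amounts. Cyp2j11 was at 215 in KO and 254 in WT (-0.24), and Cyp2j5, Cyp2j9, and Cyp2j13 were under the floor.

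The Cyp2c subfamily is another group of fatty acid and drug oxidases. Cyp2c55, known from the mouse colon, was at 13203 in the Lrrc19 KO pool and 15109 in the WT pool (log2 difference -0.19). Cyp2c65 was at 4208 in KO and 5424 in WT (-0.37), on a probe set that can match several transcripts. Cyp2c38 was at 235 in KO and 199 in WT (0.24), the most positive difference among the measured genes of the subfamily. The 6 measured Cyp2c genes split evenly, with 3 above 0 and 3 below it (median -0.08), and none passed 2-fold. Of the other 3, Cyp2c68 was at 503 in KO and 491 in WT, Cyp2c23 at 133 in KO and 121 in WT, and Cyp2c39 at 118 in KO and 135 in WT. The other 5 genes of the subfamily were under the floor, with intensities from 11.9 to 93.5.

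The remaining measured genes of family 2 all differed by less than 2-fold. Cyp2s1, an enzyme of surface epithelia that responds to AHR, was at 2451 in KO and 2367 in WT (log2 difference 0.05). Cyp2f2, known from the club cells of the mouse lung, was at 195 in KO and 151 in WT (0.36). The Cyp2b genes that are typical of the female mouse liver lay near the floor. Cyp2b9 was at 137 in KO and 131 in WT, and Cyp2b13 at 141 in KO and, under the floor, 121 in WT. The barbiturate-inducible Cyp2b10, the classical target of CAR, was under the floor in both pools (109 in KO and 92.0 in WT), as was the vitamin D hydroxylase Cyp2r1 (49.6 in KO and 47.9 in WT). Cyp2a12, Cyp2b19, Cyp2g1, and Cyp2u1 were also under it.

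**Figure D3:**
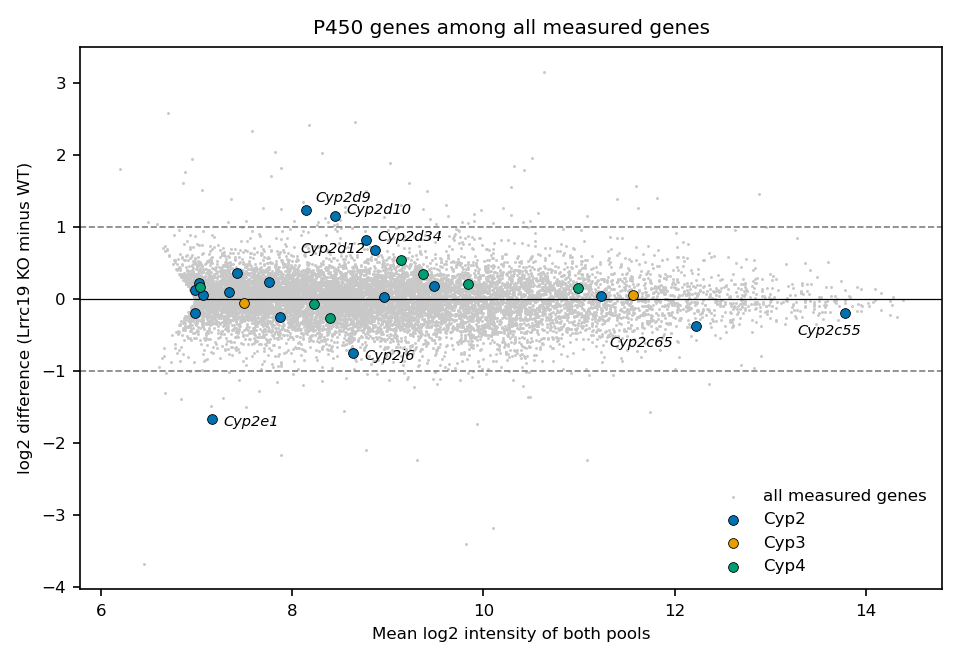
Log2 difference (Lrrc19 KO minus WT) against the mean log2 intensity of both pools for all 12518 measured genes (grey) and the measured genes of families 2 (blue), 3 (orange), and 4 (green). Dashed lines mark 2-fold. Cyp2d9 and Cyp2d10 lie above the upper line and Cyp2e1 below the lower one, at moderate to low intensity, whereas Cyp2c55 and Cyp2c65 lie at the right with differences of -0.19 and -0.37.

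Family 1 holds the main targets of AHR, the receptor for dioxin and for many indoles. Cyp1a1 was at 103 in the Lrrc19 KO pool and 98.9 in the WT pool, Cyp1a2 at 33.0 in KO and 41.4 in WT, and Cyp1b1 at 40.8 in KO and 27.4 in WT on the brightest of its 3 probe sets. With every value under the floor, a difference was not detectable for this family. The receptor and its partner were measured. Ahr was at 483 in KO and 438 in WT, and Arnt at 655 in KO and 499 in WT. None of 6 measured AHR targets outside the P450 genes passed 2-fold (median log2 difference -0.15), and the quinone reductase Nqo1 differed most (706 in KO and 1206 in WT, log2 difference -0.77).

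Family 3 takes part in the oxidation of bile acids, steroids, and many drugs, under the control of PXR. Cyp3a13, known from the mouse intestine, was at 3085 in KO and 2965 in WT (log2 difference 0.06). Cyp3a44, known from the female mouse liver, was at 178 in KO and 185 in WT (-0.06). The other 3 genes of the family on the array, Cyp3a11, Cyp3a16, and Cyp3a25, stayed between 14.8 and 39.5 in both pools. Nr1i2, which encodes PXR, was at 306 in KO and 297 in WT. Of 11 measured targets of PXR and CAR outside the P450 genes, none passed 2-fold (median -0.08), with the largest difference in the glutathione transferase Gstm3 (933 in KO and 1624 in WT, log2 difference -0.80).

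Family 4 hydroxylates the ends of fatty acid chains, and its Cyp4f members act on leukotriene B4 and related signals. Of its 7 measured genes, 5 had a log2 difference above 0 and 2 below it, and none passed 2-fold. Cyp4f14, a leukotriene hydroxylase, was at 2145 in the Lrrc19 KO pool and 1926 in the WT pool (log2 difference 0.16). Cyp4f15 was at 749 in KO and 585 in WT (0.36), and the largest difference of the family was that of Cyp4f16. Its probe sets gave close differences, with 683 in KO and 468 in WT on the brighter one (0.54), and 273 in KO and 181 in WT on the other (0.60), which can match several transcripts.

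At the lower end of the subfamily, Cyp4f13 was at 292 in KO and 307 in WT (log2 difference -0.07). Cyp4f18, an enzyme of mouse neutrophils, was near the floor at 139 in KO and 124 in WT. Outside Cyp4f, Cyp4b1 was at 988 in KO and 853 in WT (0.21). Cyp4v3, the mouse counterpart of the human gene of a retinal dystrophy, was at 307 in KO and 369 in WT (-0.26) on a probe set that can match several transcripts. The Cyp4a genes, targets of PPARA in the liver, were all under the floor, with Cyp4a31 at 110.3 in KO and 82.0 in WT, and so were Cyp4f39, Cyp4f41-ps, and Cyp4x1.

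The targets of PPARA outside the P450 genes gave 1 of 18 past 2-fold. This was the acyl-CoA thioesterase Acot1 (114 in KO, under the floor, and 229 in WT), and with the floor in place of the KO value it was no longer past 2-fold. Ppara was at 1227 in KO and 1115 in WT, and Pparg, which also serves fat cells, at 1139 in KO and 1777 in WT (log2 difference -0.64), the largest difference among 28 measured regulators, none of which passed 2-fold (median 0.02). Hnf4a, a factor that binds many P450 promoters in the liver, was at 7397 in KO and 6300 in WT.

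Probe sets of several genes added little. The one shared by Cyp4f37 and Cyp4f16 was at 381 in the Lrrc19 KO pool and 268 in the WT pool (log2 difference 0.51). Those shared by Cyp2a5 and Cyp2a4 (39.8 in KO and 35.3 in WT), by Cyp3a41b and Cyp3a41a (10.2 in KO and 10.7 in WT), and by Cyp4a31 and Cyp4a10 (52.0 in KO and 40.1 in WT) were all under the floor.

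Enzymes that supply or follow the P450 reaction all differed by less than 2-fold, mostly with log2 differences below 0. Of 8 measured electron donors and haem chaperones, 7 had a log2 difference below 0 (median -0.21), and the largest was that of Pgrmc2 (722 in KO and 930 in WT, log2 difference -0.37). Cyb5a, which encodes cytochrome b5, was at 3708 in KO and 4289 in WT. Of 13 measured genes of haem synthesis and breakdown, 12 were below 0 (median -0.29), with the biliverdin reductase Blvrb at 238 in KO and 388 in WT (-0.71) and Alas1, the first enzyme of haem synthesis, at 1031 in KO and 1367 in WT (-0.41). All 3 measured epoxide hydrolases were below 0, most of all Ephx4 (84.5 in KO, under the floor, and 153 in WT). For comparison, 6001 of all 12518 measured genes were below 0.

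Arachidonic acid enzymes outside the P450 genes had a median of 0.11 over 14 members and none past 2-fold, with the cyclooxygenase Ptgs2 differing most (275 in KO and 150 in WT, log2 difference 0.87). The 10 measured genes of other families with a Cyp symbol had a median of -0.17 and none past 2-fold. They lay between -0.37 for the retinoic acid hydroxylase Cyp26b1 (136 in KO and 176 in WT) and 0.28 for Cyp17a1 (143 in KO and 117 in WT).

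**Figure D4:**
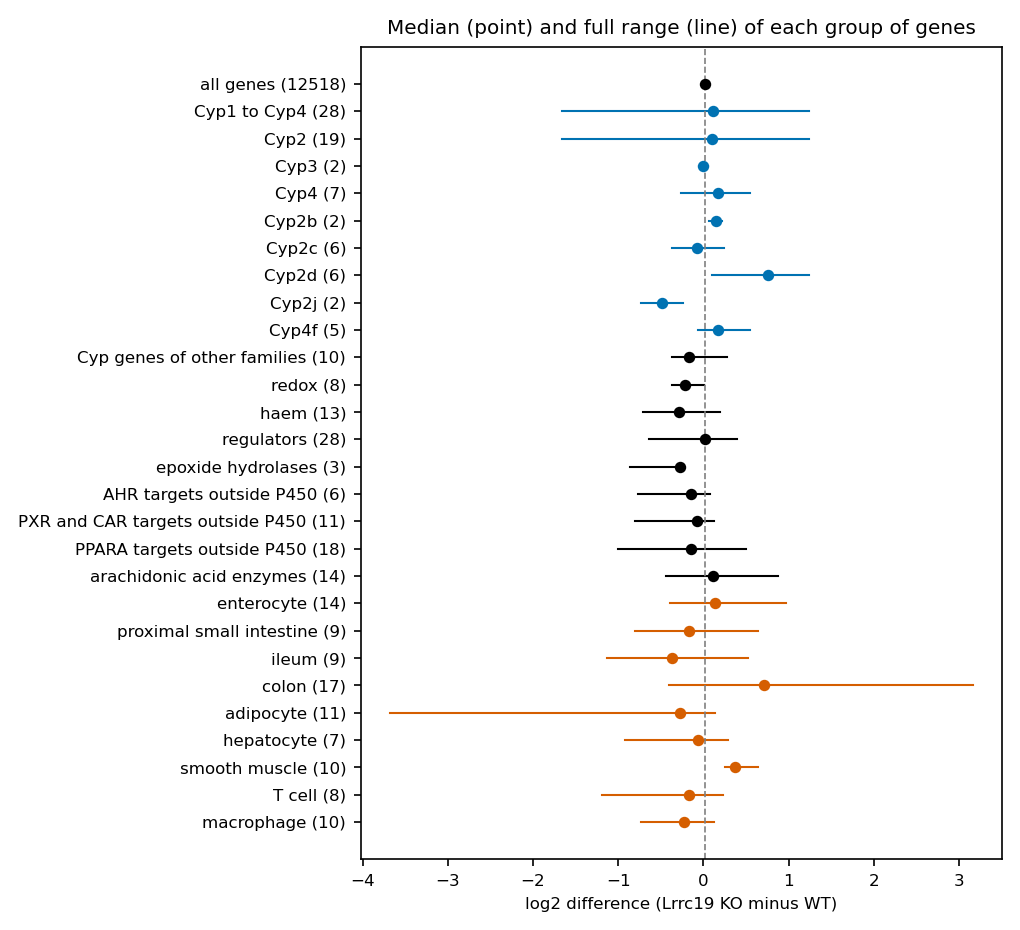
Median log2 difference (Lrrc19 KO minus WT, points) and full range (lines) of P450 groups (blue), genes around the P450 reaction (black), and markers of cells and gut regions (orange), with the number of measured genes in parentheses. The dashed line is the median of all measured genes, 0.01, whose range is not drawn. Cyp2d (0.76) and colon markers (0.71) lie furthest to the right, and Cyp2j (-0.49) and ileum markers (-0.37) furthest to the left.

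The sources used here do not say how the 2 arrays were brought to one scale. All 18 hybridization spike-in probe sets gave more signal in KO than in WT (median log2 difference 0.50). With the arrays centred on these spike-ins, a setting chosen after the data were seen, all differences shifted by -0.50. Cyp2d9 was then at 0.74 and Cyp2d10 at 0.67, no longer past 2-fold, Cyp2d22 at -0.39 and Cyp2d26 at -0.31, while Cyp2e1 was at -2.15 and Cyp2j6 at -1.23. The median of all measured genes was then -0.49, and that of Cyp2d 0.18. Under the other scalings, Cyp2d9, Cyp2d10, and Cyp2e1 kept their side of 2-fold. For Cyp2e1 all these values, -2.15 included, rest on a KO value under the floor. Its bound was taken only from the values as deposited, so whether the bound stays past 2-fold under another scaling was not tested.

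**Figure D5:**
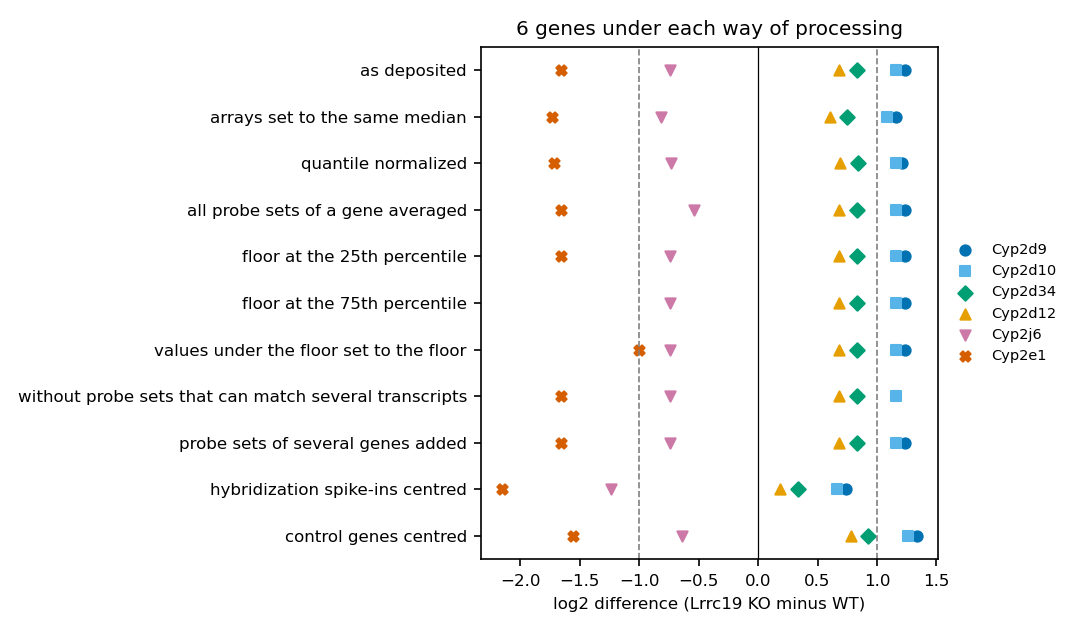
Log2 difference (Lrrc19 KO minus WT) of 6 genes under the values as deposited and 10 other ways of processing, with dashed lines at 2-fold. Points are missing where a gene was no longer measured. Cyp2d9, Cyp2d10, Cyp2d34, and Cyp2d12 lie above 0 and Cyp2j6 and Cyp2e1 below 0 under every setting that measured them, and with the spike-ins centred Cyp2d9 (0.74) and Cyp2d10 (0.67) lie inside the lines.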

How the data were processed

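The deposited table held linear intensities of 45101 probe sets for 1 array per genotype. RMA is named, without a version, in the submitters' processing notes. It usually returns log2 values, so how the authors scaled these intensities is unknown. Array medians were 131 in KO and 124 in WT. For log2 differences, values below 1 were raised to 1. After leaving out 64 control probe sets, 34945 carried 1 gene symbol, 932 several, and 9160 none. Symbols were updated by gene identifier through RefSeq (GRCm38.p6), which held all 69 single-gene P450 probe sets. A gene was read from its probe set with the highest mean log2 value, and the floor was the 50th percentile. Named genes were those past 2-fold and the 3 with the highest intensity in each family (only to choose which to name). The genes with the highest and lowest difference in each subfamily with several measured genes were named too. Genes with opposite signs, each of at least 0.5, on probe sets that reached the floor were also to be named (none was found). Of other lists, members past 2-fold were named. In a list without such a member, the one with the largest difference was named, except in lists of markers and control genes. Further genes are given to account for all members, or were chosen after their values were seen. Members and lists were chosen with earlier results of these data known. Of 299 list entries, 269 were on the array. With 1 array per genotype, precision is limited by their number and no test was possible. Scaling, probe set choice, and floor were varied. The counting was tested on simulated data, with changes well past 2-fold in bright genes only. That test does not show how calls near 2-fold or near the floor behave. Analyses used Python 3.11.15, pandas 2.3.3, and numpy 2.4.6.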

Additional observations from a re-analysis of the deposited data

How the results depend on the processing

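Results are given as Lrrc19 KO minus WT. With the floor at the 25th percentile, the median log2 difference of Cyp2d was 0.44, since 2 dim genes entered. With the floor at the 75th percentile, 0 P450 genes were 2-fold lower, since Cyp2e1 left the measured genes. Without probe sets that can match several transcripts, 1 was 2-fold higher, since Cyp2d9 left. With the hybridization spike-ins centred, 0 were higher and 2 lower, and the medians were -0.38 for families 1 to 4, -0.39 for family 2, -0.50 for family 3, -0.33 for family 4, and 0.18 for Cyp2d. With 9 control genes centred, they were 0.22 for families 1 to 4 and 0.21 for family 2. The last 2 settings were chosen after the data were seen. Setting both arrays to the same median, quantile normalization, averaging all probe sets of a gene, raising dimmer values to the floor (which left Cyp2e1 only just past 2-fold), and adding the probe sets of several genes moved no family or Cyp2d median by more than 0.1 and neither count of P450 genes. The sign of 3 of 22 named genes turned with the same median, of 2 with the control genes centred, of 1 with quantile normalization, and of 10 with the spike-ins centred, none of them past 2-fold. No paired analysis was possible because each genotype had 1 array. Without replicates, no difference of any size has a check against the spread between mice.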
